A study of Mus musculus with 11 samples.

Results

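The proteasome genes described here are those whose symbol begins with Psma, Psmb, Psmc, Psmd, Psme, Psmf or Psmg followed by a digit. Of 54 such symbols in a table of 52997 genes, 4 pseudogene symbols were left out, and 48 of the other 50 averaged over 10 counts in 1 or more groups once libraries were scaled to a common total. The immunoproteasome subunits Psmb8, Psmb9, Psmb10, Psme1 and Psme2 are 5 of these 48 genes, and the other 43 were set against them. Psma8, a testis form of an outer ring subunit, had 28 counts in Spl/LN adjuvant alone replicate 3 and at most 6 in any other library, and did not pass. Psmb11, the catalytic subunit of the thymus proteasome, had at most 2 counts in any library and did not pass either. Psmc3ip fits the symbol rule but encodes a recombination factor that binds an ATPase subunit, and Psme2b is a near-identical copy of Psme2.

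Transcripts were measured by Smart-seq2, an oligo(dT)-primed, PCR-amplified RNA-seq protocol, in 11 libraries of 1000 double-sorted cells each. The cells were clonotype+ Treg cells of vTreg53 Tg+ mice, whose transgenic TCR comes from a single Treg clone of visceral adipose tissue (VAT). They had been taken from the spleen and lymph nodes (Spl/LN) of donors, pooled, and given to CD45.1 B6 recipients, and the labels give strain C57BL/6, male sex and an age of 15 weeks for all 4 groups. After 6 weeks, recipients were immunized with the peptide Fat1562, an agonist of this TCR, in CFA and boosted 1 week later with the peptide in IFA, or were given the adjuvants without peptide according to the methods. For these controls the sample labels name PBS and call the mice unimmunized, and the term adjuvant alone is kept here. From Spl/LN there were 3 libraries with adjuvant alone and 3 with adjuvant/Fat1562, and from VAT there were 2 and 3.

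The 26S proteasome degrades proteins tagged with ubiquitin. Its 20S core is a stack of rings of alpha subunits, which gate the entry, and beta subunits, of which Psmb5, Psmb6 and Psmb7 carry the catalytic sites of the constitutive form, and the 19S cap recognizes, unfolds and threads the substrate. In the immunoproteasome, which is abundant in lymphocytes and induced elsewhere by interferon-γ, Psmb8, Psmb9 and Psmb10 take the places of Psmb5, Psmb6 and Psmb7, and Psme1 and Psme2 encode the PA28 activator that can open the core in place of the 19S cap. These subunits favor the release of peptides that fit MHC class I.

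The short sequences below show which of 4 promoter motifs stood at the starts of the genes the comparisons turn on. All but the GC box are known to be read by interferon or stress pathways. RefSeq promoters of build GRCm38.p6, each 300 bases around a transcript start, were matched by symbol for 41 of the 48 genes. Searched on both strands were the interferon-stimulated response element (GAAA, any 2 bases and GAAA again), the STAT site TTCNNNGAA, the antioxidant response element TGACNNNGC that Nrf1 and Nrf2 bind, and the GC box GGGCGG. Of 32851 promoters, 3.44% held the first, 8.3% the second, 12.4% the third and 35.7% the fourth. Of the 41 proteasome genes, 5, 3, 6 and 23 held them in 1 or more of their 44 promoters. The first figures count promoters and the second count genes. Capitals mark the match, and each line is written 5′ to 3′ on the strand of the gene.
Psmb8, STAT site at chr17:34198098-34198106, plus strand: ccgctgTTCCCAGAAgatgcc
Psmb9, GC box at chr17:34187380-34187385, minus strand: atgatgGGGCGGggcctc
Psme1, interferon-stimulated response element at chr14:55578503-55578512, plus strand: ctgtgcTTTCGCTTTCccttcc
Psmb3, interferon-stimulated response element at chr11:97703271-97703280, plus strand: gtgactTTTCACTTTCcgcttt
Psmb5, antioxidant response element at chr14:54618034-54618042, minus strand: aagttgTGACGTCGCggcgtt
Psmb6, antioxidant response element at chr11:70525348-70525356, plus strand: agagagTGACGGAGCgcttta
Of the 3 immunoproteasome catalytic genes, Psmb8 held the STAT site, Psmb9 held the GC box alone and Psmb10 held none of the 4 motifs in its window. Both Psmb5 and Psmb6 held the antioxidant response element, and no match to any of the 4 motifs was found for Psmb7. The match of Psme1 lies at bases 10 to 19 of its transcript, in the first exon, and the others lie upstream of the start, from bases -163 to -154 for Psmb3 to bases -9 to -1 for Psmb6. The matches of Psme1 and Psmb3 read on the opposite strand of the gene. Psme2, not shown, held GC boxes alone, and no match to any of the 4 motifs was found for Psmd3. Genes outside the 41 were not searched, so that the lack of a match for Psmb7 or Psmd3 does not show that the motifs were absent. A match is a run of letters, and binding was not measured.

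A second pair of sequences is shown because it limits how the counts of Psme2 can be read. The coding sequences of Psme2 and of its copy Psme2b are 717 bases each in GENCODE vM21 and are identical at 712 bases (99.3%). The stretch of 60 bases with the most differences, from coding position 484, holds 3, in capitals.
Psme2: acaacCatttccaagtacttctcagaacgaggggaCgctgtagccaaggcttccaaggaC
Psme2b: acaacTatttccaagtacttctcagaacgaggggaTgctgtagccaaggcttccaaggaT
Reads were 38 bases long, and 31.6% of the 38-base stretches of Psme2 and 74.8% of those of Psme2b also occur in other genes. The counts of Psme2b, 63.7 to 115 normalized counts in a library, are therefore uncertain. Of Psmb5, 66.1% of the stretches occur elsewhere, chiefly in Gm3375, and of Psmb3, 20.4% do, so that both of these counts are uncertain too. Psmb10 lies on chromosome 8 from 105935735 to 105938444 on the minus strand and shares no such stretch with another gene. Psmb9 and the peptide transporter gene Tap1 lie head to head and overlap by 212 exonic bases on opposite strands, Psmb8 overlaps Gm20496 by 498 bases and Psmb7 overlaps Nek6 by 405 bases, and the counting is not stated to use strand.

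Total counts per library ran from 4490242 to 6570057, the lowest in VAT adjuvant alone replicate 2. The 48 genes took 0.749% to 0.934% of a library's counts. Foxp3, the Treg lineage factor, was at 6759 to 7676 normalized counts in Spl/LN and at 8266 to 10268 in VAT, and all 5 Treg markers were found in every library. The summed level of 2 CD8 T cell markers was 66.4 to 194 normalized counts, of 4 B cell markers 68.7 to 226, of 7 macrophage and monocyte markers 32.5 to 140, of 4 dendritic cell markers 12.5 to 81.5, of 3 stromal markers 10.9 to 32.9 and of 4 adipocyte markers 0 to 10.1. The adipocyte gene Adipoq was at 0 in both VAT adjuvant alone libraries. Normalized counts are counts per TMM-corrected library, expressed for a library of mean size. The paper calls the replicates biological, but libraries are not stated to come from separate mice, so that p-values measure the spread between libraries.

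On a scale of counts per kilobase of annotated exon and per 1000000 normalized counts, Psmb8 had the highest level of the 48 genes, with a mean of 289.7 over the 4 groups, followed by Psme1 at 217 and Psme2 at 199. Immunoproteasome subunits thus held the first 3 places, while Psmb10 at 88.9 ranked 14 and Psmb9 at 74.5 ranked 20. Among the constitutive catalytic subunits, Psmb5 was at 131 and Psmb6 at 122 on the same scale, and Psmb7 ranked 40. The lowest levels were those of Psmc3ip at 5.09 and of Psme4, which encodes the activator PA200, at 3.56. These levels use the summed length of all annotated exons, which lowers genes with long rarely used exons. They are also uncertain for Psmb5 and Psme2, of which 66.1% and 31.6% of the 38-base stretches occur in other genes.

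In Treg cells of mice given adjuvant alone, 3 of the 5 immunoproteasome subunits were lower in VAT than in Spl/LN. Psme2 was 1.59-fold, Psmb10 1.45-fold and Psme1 1.40-fold lower, while no gene of the alpha ring or of the ATPases passed. In all, 5 of the 48 proteasome genes passed an adjusted p under 0.05 (edgeR quasi-likelihood test, Benjamini-Hochberg over 12932 genes), where 16.3% of all tested genes did. Of the 48, 4 were lower, against 7.18% of all tested genes, and 1 was higher, against 9.09%. As in any bulk sample, fewer cells of a type and less RNA per cell cannot be told apart.

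Psmb10, the immunoproteasome subunit with trypsin-like activity, was at 805, 938 and 946 normalized counts in the Spl/LN libraries and at 668 and 569.8 in the VAT libraries. The groups did not overlap, and the log2 fold change was -0.53 ± 0.14 (SE, edgeR adjusted p = 0.0145). Psme1, the alpha subunit of PA28, was at 2679, 3069 and 3088 in Spl/LN and at 2210 and 1995 in VAT. Here too every VAT library was below every Spl/LN library (log2 fold change -0.49 ± 0.10, edgeR adjusted p = 0.00324). Psme2, the beta subunit of PA28, was at 1733, 1795 and 2128 in Spl/LN and at 1396 and 978 in VAT. It had the largest decrease of the 5 (log2 fold change -0.67 ± 0.15, edgeR adjusted p = 0.00391), and with the counts of Psme2b added, an alternative chosen after seeing the data, the log2 fold change was -0.66.

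Psmb9, which replaces Psmb6, was at 1439, 1602 and 1572 in Spl/LN and at 1410 and 988 in VAT. The groups did not overlap, but the log2 fold change of -0.36 ± 0.15 did not pass (edgeR adjusted p = 0.133). It passed with no filter (-0.36, adjusted p = 0.0499), total counts only (-0.51, 0.0216), quantile normalization and limma voom (-0.48, 0.0333) and without VAT adjuvant alone replicate 1 (-0.64, 0.0296). Psmb8, which replaces Psmb5 and has chymotrypsin-like activity, was at 4805, 5803 and 5532 in Spl/LN and at 5498 and 4803 in VAT. Its groups overlapped, with a log2 fold change of -0.06 ± 0.11 (edgeR adjusted p = 0.768), and it passed with quantile normalization and limma voom (-0.43, adjusted p = 0.00175). All 5 estimates were below 0 and their median was -0.49, where the median over the other 43 genes was -0.02 and that over all tested genes -0.03.

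The calls of Psmb10, Psme1 and Psme2 rested on VAT adjuvant alone replicate 2, the library of lowest total count. Without it the log2 fold changes were -0.43, -0.42 and -0.44, with edgeR adjusted p = 0.160, 0.0572 and 0.0964, the lone VAT library being taken to vary like those of the other groups, and Psmd3 alone of the 48 genes passed. The part of its depth in the result was not tested. Some markers of other cells did not overlap between the same groups. The 2 endothelial markers, nearly all of it Pecam1, summed to 463 to 513 normalized counts in Spl/LN and to 237 to 294 in VAT, and the stromal markers to 15.5 to 27.1 and to 10.9 to 12.5. The CD8 T cell markers summed to 99.1 to 124 and to 172 to 194. In VAT all of this was Cd8b1, with Cd8a at 0. The dendritic cell markers summed to 12.5 to 49.3 and to 61.2 to 81.5. In VAT nearly all of this was Xcr1, at 80.4 and 53.7, with Flt3, Itgax and Cd209a at most 3.75. The part of these markers in the result was not tested.

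**Figure D1:**
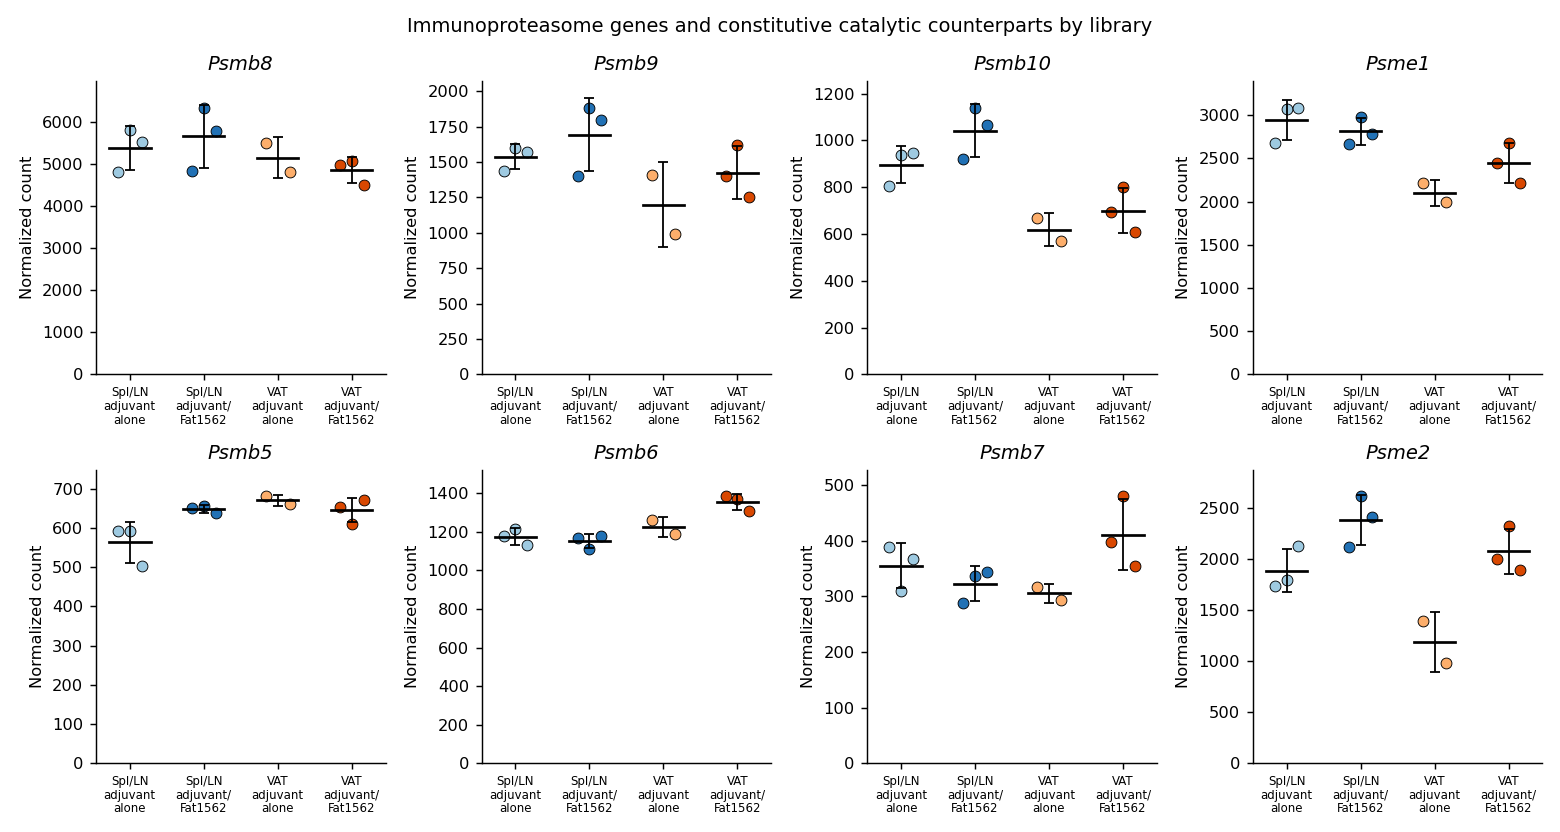
Normalized counts of the 5 immunoproteasome subunits and of Psmb5, Psmb6 and Psmb7 in each of the 11 libraries (points), with the mean (line) and SD (bar) of each group on an axis from 0. Psmb10 lies between 569.8 and 800.2 in the 5 VAT libraries and between 805 and 1140.1 in the 6 Spl/LN libraries, and Psme2 is lowest in the 2 libraries of VAT adjuvant alone.

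Outside the immunoproteasome, 2 genes differed between VAT and Spl/LN with adjuvant alone. Psmd3, a subunit of the 19S lid, was at 842, 821 and 1004 in Spl/LN and at 552 and 755 in VAT. Every VAT library was lower (log2 fold change -0.45 ± 0.14, edgeR adjusted p = 0.0374). Without VAT adjuvant alone replicate 1 its log2 fold change was -0.24 (edgeR adjusted p = 0.409), and it did not pass without Spl/LN adjuvant alone replicate 3 (adjusted p = 0.109), Spl/LN adjuvant/Fat1562 replicate 2 (0.0515) or VAT adjuvant/Fat1562 replicate 2 (0.0509), nor in a fit of only the groups compared (0.132). Without VAT adjuvant alone replicate 2 the value was -0.69. Psmb3, a beta ring subunit without a catalytic site, was at 636, 644 and 659 in Spl/LN and at 856 and 853 in VAT. It was the gene of the 48 that passed in the higher direction (log2 fold change 0.40 ± 0.11, edgeR adjusted p = 0.0154), and without VAT adjuvant alone replicate 1 or 2 it did not pass (adjusted p = 0.0931 and 0.0873), nor with no filter, total counts only, quantile normalization or only the groups compared (adjusted p = 0.0733, 0.105, 0.0520 and 0.0562). Psmb5, Psmb6 and Psmb7 did not pass.

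With adjuvant/Fat1562, Psmb10 was again lower in VAT than in Spl/LN and was the only one of the 48 genes to pass. Its level was 919, 1140.1 and 1065 in the Spl/LN libraries and 692, 800.2 and 607 in the VAT libraries, without overlap. That is a 1.49-fold difference (log2 fold change -0.57 ± 0.12, edgeR adjusted p = 0.00393), and it passed with each library left out, at an adjusted p of at most 0.0280. Among all tested genes, 15.0% passed in this comparison and 6.73% were lower. DESeq2 called 3 of the 48, Psmb10, Psmb6 and Psmd1, and with quantile normalization or total counts alone Psmb8 and Psme1 passed too, Psmb8 also without Spl/LN adjuvant/Fat1562 replicate 1 (-0.32, adjusted p = 0.0464). The dendritic cell markers summed to at most 22.5 in Spl/LN and to 52.1 to 78.8 in VAT, where nearly all of it was Xcr1 (47.5 to 77.7). The B cell markers, mostly Cd79b, summed to 148 to 188 and to 68.7 to 105, and the macrophage and monocyte markers to 94.6 to 111 and to 38.7 to 81.1. The part of these markers in the result was not tested.

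The other immunoproteasome subunits had smaller estimates with adjuvant/Fat1562. Psme1 was at 2672, 2984 and 2785 in Spl/LN and at 2453, 2674 and 2214 in VAT, ranges that overlapped at their edge, and Psme2 was at 2118, 2611 and 2412 in Spl/LN and at 1999, 2323 and 1895 in VAT, which overlapped. Their log2 fold changes were -0.20 ± 0.09 and -0.20 ± 0.13 (edgeR adjusted p = 0.162 and 0.337). Psmb8 was at 4844, 6340 and 5784 in Spl/LN and at 4987, 5063 and 4495 in VAT, and Psmb9 at 1397, 1883 and 1797 in Spl/LN and at 1398, 1622 and 1256 in VAT. Both overlapped between tissues, with log2 fold changes of -0.22 ± 0.10 and -0.25 ± 0.14.

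The 5 immunoproteasome subunits and most of the other 43 genes lay on different sides of 0 in this comparison. All 5 immunoproteasome estimates were below 0, with a median log2 fold change of -0.22, and 34 of the other 43 were above 0, with a median of 0.12, where 49.4% of all tested genes were above 0 with a median of -0.01. All 7 alpha ring genes and all 6 ATPases of the 19S base were above 0, at 0.03 to 0.29 and 0.07 to 0.27, and none of these 13 passed the test. Under the other scalings, filters and fits the 5 stayed below 0, and 28 to 34 of the other 43 were above 0, the fewest when total counts alone set the scale. In the 2 tissue comparisons the libraries differ, so that the values of Psmb10 come from separate samples.

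**Figure D2:**
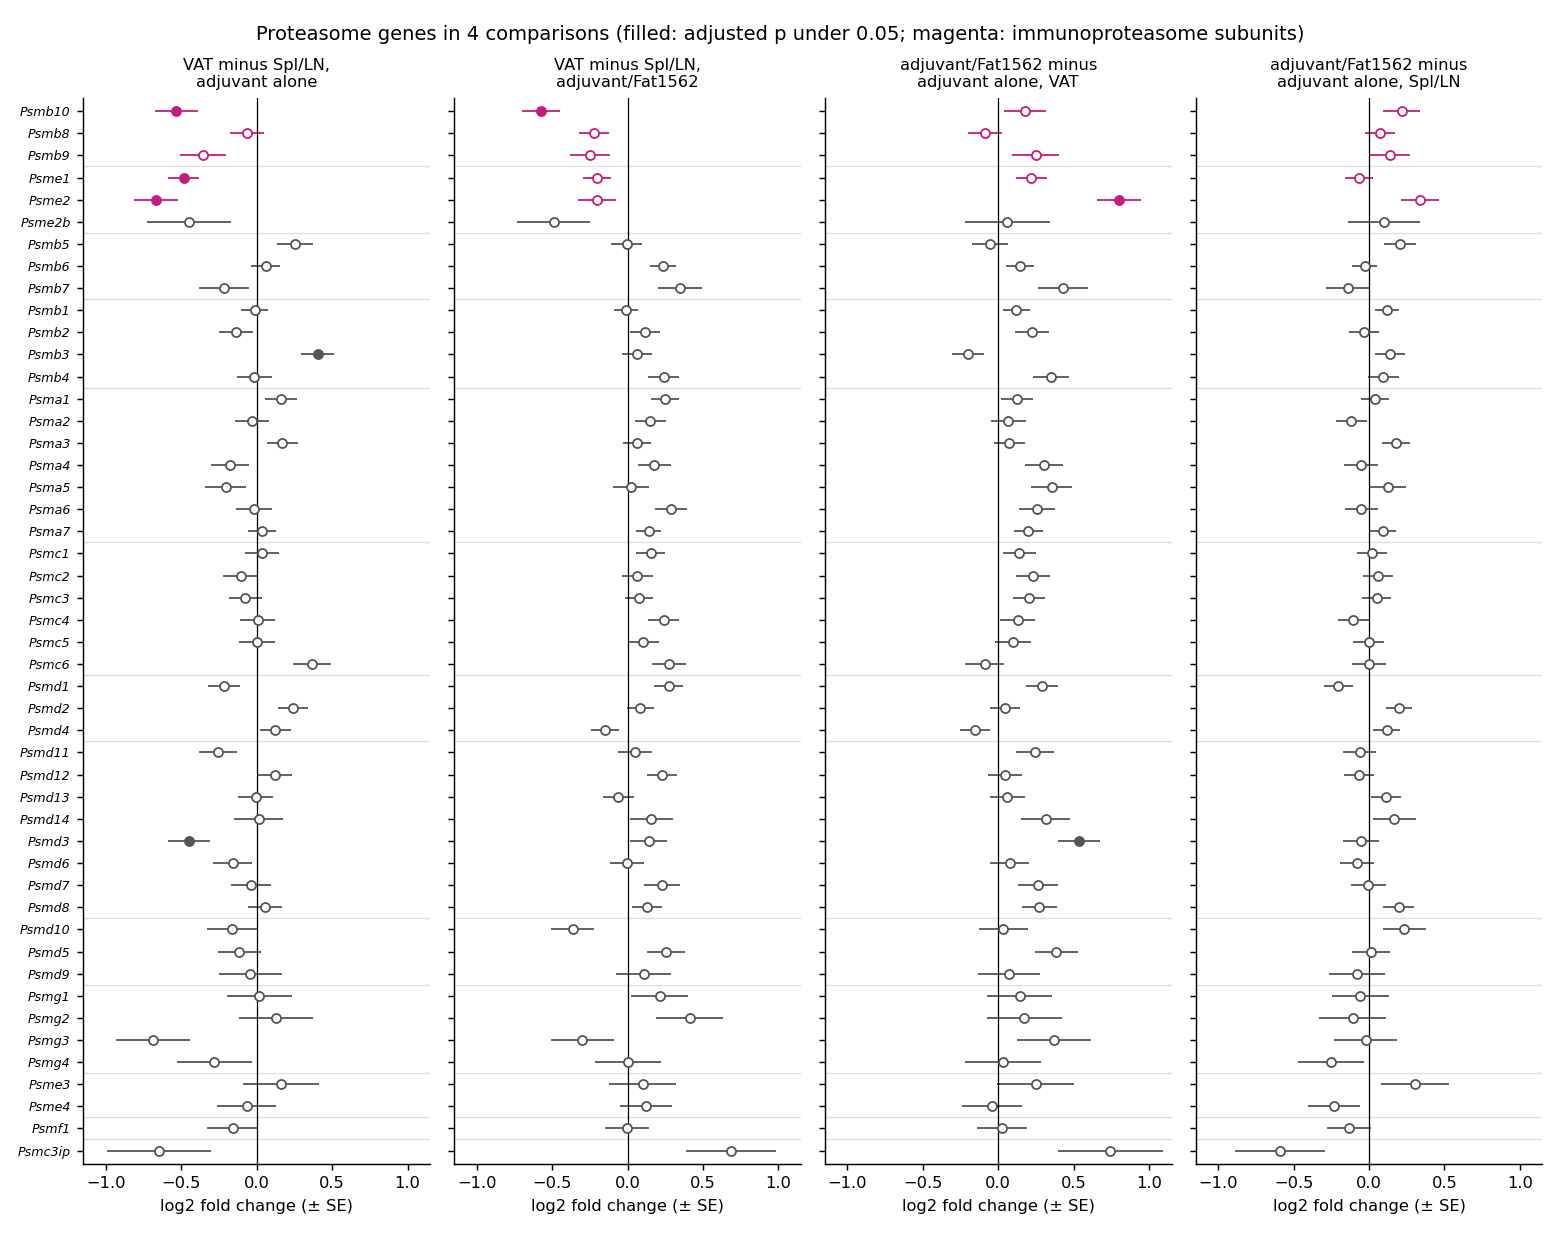
Log2 fold changes with SE of the 48 proteasome genes in the 2 tissue and 2 immunization comparisons, ordered by role with grey lines between roles. Filled points passed an adjusted p under 0.05, with 5, 1, 2 and 0 genes from left to right, and the magenta points of the 5 immunoproteasome subunits lie left of 0 in both tissue panels.

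Each immunoproteasome catalytic subunit takes the place of 1 constitutive subunit, and the ratio of the 2 within a library does not depend on how libraries are scaled. The ratio of Psmb10 to Psmb7 was 2.07 to 3.03 in Spl/LN and 1.94 to 2.11 in VAT with adjuvant alone, and 3.09 to 3.38 in Spl/LN and 1.67 to 1.74 in VAT with adjuvant/Fat1562. The ranges overlapped with adjuvant alone and lay apart with adjuvant/Fat1562. On the log2 scale the ratio was lower in VAT by 0.32 with adjuvant alone and by 0.91 with adjuvant/Fat1562, a mean difference of -0.62 (exact stratified permutation test, two-sided, p = 0.015, adjusted over 6 ratio tests 0.045).

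The ratio of Psmb9 to Psmb6 was 1.22 to 1.39 in Spl/LN and 0.832 to 1.12 in VAT with adjuvant alone, and 1.20 to 1.70 in Spl/LN and 0.960 to 1.18 in VAT with adjuvant/Fat1562. Every VAT library was below every Spl/LN library. The log2 ratio was lower in VAT by 0.44 and 0.48 in the 2 immunization groups, a mean of -0.46 (exact permutation test, two-sided, p = 0.005, the smallest that 200 arrangements can give, adjusted 0.03). The ratio of Psmb8 to Psmb5 was higher throughout, at 2.74 to 3.45 on the log2 scale, and its ranges overlapped between tissues with adjuvant/Fat1562. Its difference of -0.26 on the log2 scale did not pass after adjustment (exact permutation p = 0.05, adjusted 0.10).

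Between adjuvant/Fat1562 and adjuvant alone within a tissue, none of the 3 ratios passed. The mean log2 differences were -0.09 for Psmb8/Psmb5, 0.14 for Psmb9/Psmb6 and 0.05 for Psmb10/Psmb7 (exact permutation p = 0.42, 0.265 and 0.705), and for the last the tissues went opposite ways, with 0.35 in Spl/LN and -0.24 in VAT. With any 1 library left out, the tissue difference was -0.56 to -0.35 for Psmb9/Psmb6 and -0.69 to -0.55 for Psmb10/Psmb7, and neither passed (adjusted p up to 0.10 and 0.1125), with fewer arrangements to draw from. The values nearest to 0 came without VAT adjuvant alone replicate 2 for the first and without Spl/LN adjuvant alone replicate 2 for the second. Set per kilobase of exon, Psmb8 made up 64.0% to 74.5% of the sum of Psmb8 and Psmb5, Psmb9 29.8% to 46.5% of Psmb9 and Psmb6, and Psmb10 77.0% to 87.2% of Psmb10 and Psmb7. These shares depend on the summed length of all annotated exons. The share of Psmb8 is also uncertain because 66.1% of the 38-base stretches of Psmb5 occur in other genes.

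**Figure D3:**
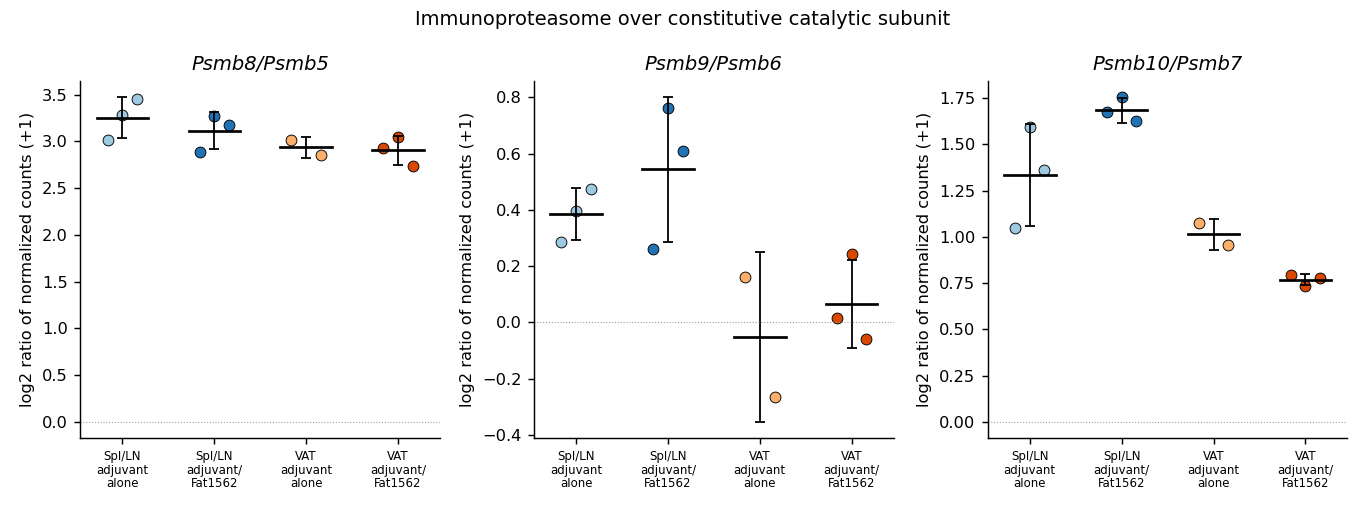
Log2 ratio of normalized counts of each immunoproteasome catalytic subunit to the constitutive subunit it replaces, in each library (points), with the group mean (line) and SD (bar), and a dotted line at equal counts. Psmb9/Psmb6 lies at 0.26 to 0.76 in the 6 Spl/LN libraries and at -0.27 to 0.24 in the 5 VAT libraries, and Psmb10/Psmb7 at 0.74 to 0.80 in VAT adjuvant/Fat1562 against 1.62 to 1.75 in Spl/LN adjuvant/Fat1562.

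The constitutive counterparts themselves did not pass between tissues. Psmb7 was at 388, 310 and 368 normalized counts in Spl/LN and at 317 and 294 in VAT with adjuvant alone, and at 287, 337 and 345 in Spl/LN and at 399, 480 and 354 in VAT with adjuvant/Fat1562. It overlapped in the first comparison and was higher in VAT in all libraries of the second (log2 fold change 0.35 ± 0.15, edgeR adjusted p = 0.131). Psmb6 was at 1179, 1218 and 1131 in Spl/LN and at 1261 and 1188 in VAT with adjuvant alone, and at 1166, 1110 and 1178 in Spl/LN and at 1385, 1371 and 1309 in VAT with adjuvant/Fat1562. Again the second pair of groups lay apart (log2 fold change 0.23 ± 0.08, edgeR adjusted p = 0.0739). Psmb5 was at 592, 594 and 504 and at 681 and 661 with adjuvant alone, and at 652, 657 and 638 and at 655, 612 and 672 with adjuvant/Fat1562, in Spl/LN and VAT respectively. It was higher in VAT in all libraries with adjuvant alone (log2 fold change 0.25 ± 0.12, edgeR adjusted p = 0.165) and overlapped with adjuvant/Fat1562.

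In VAT, the PA28 gene Psme2 and the lid gene Psmd3 were higher after adjuvant/Fat1562 than after adjuvant alone. Psme2 rose 1.74-fold, from 1396 and 978 to 1999, 2323 and 1895 normalized counts, without overlap (log2 fold change 0.80 ± 0.15, edgeR adjusted p = 0.00195). Psmd3 rose 1.45-fold, from 552 and 755 to 942, 986 and 906, also without overlap (log2 fold change 0.53 ± 0.14, edgeR adjusted p = 0.0251). These were 2 of the 48 genes, where 8.3% of all tested genes passed and 4.33% were higher. The 2 libraries of VAT adjuvant alone also served in the first tissue comparison, in which the same 2 genes were lower in VAT, so these calls are not independent of each other.

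Both calls depended on single libraries. Without VAT adjuvant alone replicate 2, the log2 fold change of Psme2 was 0.57 (edgeR adjusted p = 0.0577), and without VAT adjuvant alone replicate 1 that of Psmd3 was 0.33 (edgeR adjusted p = 0.329). Psmd3 also did not pass without VAT adjuvant/Fat1562 replicate 1 (adjusted p = 0.0576) or replicate 2 (0.0910). With the counts of Psme2b added, Psme2 had a log2 fold change of 0.77. The endothelial markers, at 413 to 590 after peptide, and the stromal markers, at 15.3 to 32.9, lay apart from their levels with adjuvant alone. So did the CD8 T cell markers, at 91.7 to 137, all of it Cd8b1. The part of these markers in the result was not tested.

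The remaining immunoproteasome subunits did not pass in VAT. Psme1 was at 2210 and 1995 with adjuvant alone and at 2453, 2674 and 2214 with adjuvant/Fat1562, a small gap between groups that lay apart (log2 fold change 0.22 ± 0.10, edgeR adjusted p = 0.238). Psmb10, Psmb9 and Psmb8 overlapped between the groups, with log2 fold changes of 0.18 ± 0.14, 0.25 ± 0.15 and -0.09 ± 0.11. Of the 43 other genes, 38 were above 0 with a median log2 fold change of 0.14, where 50.8% of all tested genes were above 0 with a median of 0.01. These 38 included all 7 alpha ring genes, at 0.07 to 0.35, and all 8 lid genes, at 0.05 to 0.53, of which Psmd3 alone passed. With 1 library left out the number above 0 was 33 to 38, and under the other alternatives 35 to 38.

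Summed over the 5 immunoproteasome subunits, the level was 11460 to 13266 normalized counts in Spl/LN adjuvant alone, 11952 to 14958 in Spl/LN adjuvant/Fat1562, 9335 to 11182 in VAT adjuvant alone and 10467 to 12482 in VAT adjuvant/Fat1562. The 2 VAT adjuvant alone libraries were below all 6 Spl/LN libraries, and the VAT adjuvant/Fat1562 libraries overlapped with both Spl/LN groups. The other 43 genes summed to 33231 to 33576, 32633 to 35394, 32688 to 34105 and 35514 to 38771 in the same order. Here the VAT adjuvant/Fat1562 libraries were above all others. Psmb8 has the highest counts and weighs most in the first sum.

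**Figure D4:**
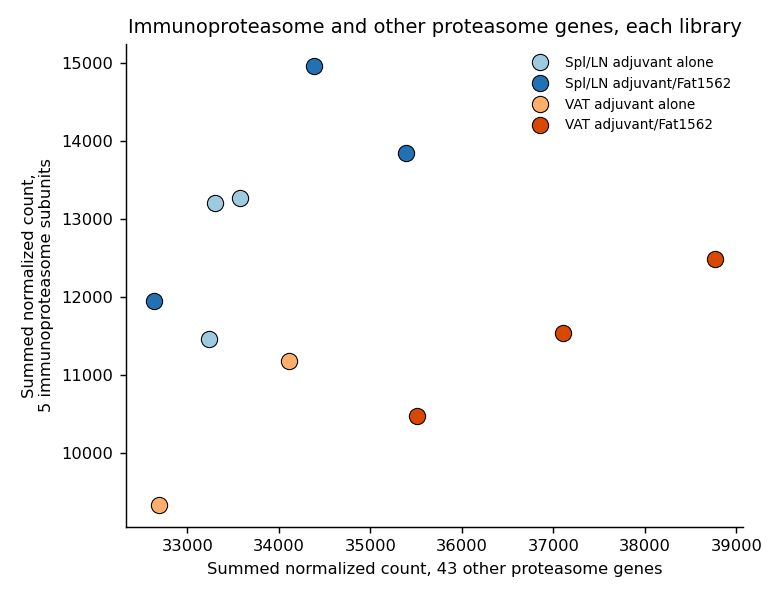
Summed normalized counts of the 5 immunoproteasome subunits (vertical axis) against those of the 43 other proteasome genes (horizontal axis), 1 point for each of the 11 libraries, on axes that do not start at 0. The 3 VAT adjuvant/Fat1562 libraries lie farthest right, from 35514 to 38771, and the 2 VAT adjuvant alone libraries lie at 9335 and 11182 on the vertical axis.

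In Spl/LN, no proteasome gene passed between adjuvant/Fat1562 and adjuvant alone, where 3.98% of all tested genes did. The edgeR test gave 3 of the 48 an unadjusted p under 0.05, and DESeq2 called 0. One of the 3 was Psme2, which was at 1733, 1795 and 2128 with adjuvant alone and at 2118, 2611 and 2412 with adjuvant/Fat1562, groups that overlapped at their edge (log2 fold change 0.34 ± 0.13, edgeR adjusted p = 0.158). The estimates of Psmb10, Psmb9, Psmb8 and Psme1 were 0.22 ± 0.12, 0.14 ± 0.14, 0.07 ± 0.10 and -0.07 ± 0.09. The median over the other 43 genes was -0.0032, with 21 above 0.

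Whether the effect of immunization differed between tissues was tested by the interaction, which 3.72% of all tested genes passed and none of the 48 did. With edgeR 7 of the 48 had an unadjusted p under 0.05, and DESeq2 called 2, Psmd1 and Psmd3. Psmd1, the largest scaffold subunit of the 19S base, was at 1134, 1097 and 1227 and at 1002, 957 and 1045 in Spl/LN, and at 1064 and 915 and at 1196, 1272 and 1162 in VAT, with adjuvant alone and adjuvant/Fat1562 respectively. It was lower after peptide in every Spl/LN library and higher in every VAT library, and the interaction estimate was 0.49 ± 0.14 (edgeR adjusted p = 0.0664). For Psme2 the interaction estimate was 0.47 ± 0.19 (edgeR adjusted p = 0.213), so a difference between the tissues in its response was not shown.

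The other activators and the inhibitor did not pass in any of the 5 comparisons. Psme3, the nuclear activator PA28 gamma, was at 157, 169 and 96.0 and at 190.1, 176 and 156 in Spl/LN, and at 190.1 and 122 and at 159, 202 and 197 in VAT, with adjuvant alone and adjuvant/Fat1562 respectively. Psme4 lay between 128 and 183 in all libraries and Psmf1, which encodes the inhibitor PI31, between 369 and 538. The 4 assembly chaperones Psmg1 to Psmg4 and the 3 base chaperones Psmd5, Psmd9 and Psmd10 had no call either. Of these, Psmg3 had the largest estimate, -0.69 ± 0.24 between VAT and Spl/LN with adjuvant alone, from 109, 94.9 and 119.8 to 63.0 and 71.2, which lay apart.

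Genes around the proteasome were read from lists chosen with earlier results of these data known. Of all tested genes, 16.3% passed between tissues with adjuvant alone and 15.0% with adjuvant/Fat1562. After peptide 8.3% passed in VAT and 3.98% in Spl/LN, and 3.72% passed the interaction. The lists of 6 and 12 genes had 0 to 2 genes called in a comparison, and no list is read as a whole. Of 6 subunit and assembly genes outside the symbol rule, which include Pomp and Adrm1, none passed in any comparison. Of 12 deubiquitinases and shuttle factors, Uchl5, a deubiquitinase of the 19S cap, was higher in VAT with adjuvant/Fat1562 (log2 fold change 0.54), and Zfand5, an activator of the 26S form, was higher after peptide in Spl/LN (1.29). Of 6 genes of the Nrf1 control of proteasome transcription, Ngly1, which deglycosylates Nrf1, was higher in VAT with adjuvant alone (0.44) and had a negative interaction (-0.72), and Syvn1 was higher after peptide in Spl/LN (0.56). From the list of ubiquitin and E1 genes, Ubb, which encodes a chain of ubiquitin units, was higher in VAT with adjuvant alone (0.40), and Uba1, the main ubiquitin-activating enzyme, was higher after peptide in Spl/LN (0.28).

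The list that touches the immunoproteasome most closely holds 18 tested genes of class I peptide supply and of its inducers. Between VAT and Spl/LN with adjuvant alone, 7 of the 18 passed, 5 higher and 2 lower, where 16.3% of all tested genes passed, 9.09% higher and 7.18% lower. With adjuvant/Fat1562, 7 passed, 2 higher and 5 lower, where 15.0% of all tested genes passed. With adjuvant alone the factor Irf1 was among the lower genes in VAT (log2 fold change -0.38), and B2m, the class I light chain (0.42), Pdia3 (0.28), Nlrc5 (0.78), Ifngr1, the ligand-binding receptor chain for interferon-γ (2.22), and Jak2 (1.18) were higher. With adjuvant/Fat1562, Tapbp (-0.36), Nlrc5 (-0.35), Irf1 (-0.63), Stat2 (-0.65) and Irf9 (-0.48) were lower in VAT and Ifngr1 (1.28) and Jak2 (0.51) were higher. Irf1 was thus lower in VAT in both comparisons, as Psmb10 was, and a link between the 2 genes was not tested. The peptide transporter genes Tap1 and Tap2 passed in neither, with estimates of -0.18 and -0.12 with adjuvant alone and of -0.20 and -0.15 with adjuvant/Fat1562.

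Nlrc5, the transactivator of MHC class I genes, had another order of groups. It was at 1732, 2002 and 1798 and at 1885, 1959 and 1715 in Spl/LN, and at 3138 and 3190 and at 1453, 1440 and 1470 in VAT, with adjuvant alone and adjuvant/Fat1562 respectively. It was highest in VAT adjuvant alone, the group in which Psmb10, Psme1 and Psme2 were lowest, and lowest in VAT adjuvant/Fat1562. In VAT it fell after peptide (log2 fold change -1.12 ± 0.09, edgeR adjusted p = 9.04e-07), and its interaction passed (-1.13 ± 0.13, adjusted p = 7.52e-05). After peptide in VAT, Irf9 (-0.39) and Ifngr1 (-0.34) were also lower, and in Spl/LN Ifngr1 was higher (0.60).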

How the data were processed

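The authors deposited raw counts for 52997 gene symbols, whole numbers without normalization. Per the labels, the submitters' processing notes name STAR 2.5.4, featureCounts and mm10, whereas the methods name Cuffquant and a filter on expression and on a coefficient of variation under 0.7. Annotation and strand use are not given in the sources used here. There were no molecular identifiers, so counts cover amplified fragments. The 12932 genes that averaged over 10 counts in any group, once scaled to a common total, were fitted in 1 model of the 4 groups with edgeR 4.0.16 in R 4.3.3 (TMM, quasi-likelihood test), and p-values were adjusted by Benjamini-Hochberg over all of them. SE is the log2 fold change over the square root of F. The common biological coefficient of variation was 19.06%. Ratios used log2 of normalized counts plus 1, with exact two-sided permutation tests stratified by immunization or tissue. The genes and lists were chosen with earlier results of these data known. The named genes were the 5 immunoproteasome subunits, their counterparts, Psme3, Psme4, Psmf1, every called gene, and called genes of the lists, of which some are not reported here; Psmd1, Psmg3, Tap1 and Tap2 were chosen after their values were seen. Positions came from GENCODE vM21. The fits were tested on simulated data.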

Additional observations from a re-analysis of the deposited data

How the results depend on the processing

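Alternatives to the filter, scaling, tool and samples were tried, with each library left out in turn. The number of proteasome genes called with adjuvant alone between tissues (5) was 8 with total counts only, 3 with only the groups compared and 1 to 5 with 1 library left out. With adjuvant/Fat1562 between tissues (1) it was 4 with total counts only, 3 with quantile normalization and limma voom, 3 with DESeq2, 3 with only the groups compared and 1 to 2 with 1 library left out. After peptide in VAT (2) it was 3 with total counts only, which added Psmb4, and 1 to 2 with 1 library left out, in Spl/LN (0) it was 1 with no filter (Psme2) and 0 to 0 with 1 library left out, and for the interaction (0) it was 1 with a mean above 50, with total counts only and with quantile normalization, 2 with DESeq2 and 0 to 1 with 1 library left out. A 2-fold minimum left 0 in every comparison. Total counts only moved the median of all genes by -0.15 between tissues with adjuvant alone, with 904 higher and 1630 lower in place of 1175 and 928, and 7 of the 43 other genes then lay above 0. Of 12932 genes, DESeq2 called 793 in Spl/LN and 783 in the interaction in place of 515 and 481, and no filter 793 and 720. Total counts only gave 890 higher and 1152 lower (in place of 1068 and 870) between tissues with adjuvant/Fat1562, 267 and 231 (334 and 181) in Spl/LN and 304 and 199 (220 and 261) in the interaction. With 1 library left out, the counts over all genes of 2103, 1938, 1074, 515 and 481 fell to as few as 1259, 1289, 508, 190 and 240, without VAT adjuvant alone replicate 1, VAT adjuvant/Fat1562 replicate 2, VAT adjuvant alone replicate 2, Spl/LN adjuvant/Fat1562 replicate 2 and VAT adjuvant alone replicate 1. The cause of these shifts was not tested.

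Left out singly, the libraries gave -0.56 to -0.35 for the tissue difference of Psmb9/Psmb6, -0.69 to -0.55 for Psmb10/Psmb7 and -0.019 to 0.12 for the immunization difference of Psmb10/Psmb7. Of 900 single-gene values, 853 kept direction and side of the threshold, 19 lost and 12 gained significance and 16 changed sign, all of them not called. With 1 library left out, Psmb8 ran from -0.17 to 0.027 (tissue, adjuvant alone), from -0.18 to 0.015 (peptide, VAT) and from -0.018 to 0.17 (peptide, Spl/LN), Psmb5 from -0.035 to 0.031, by way of 0.0037 (tissue, adjuvant/Fat1562), and in the interaction Psmb9 ran from -0.12 to 0.39, with -0.010 between, and Psmb10 from -0.15 to 0.085, with 0.027, 0.029 and 0.052 between. Quantile normalization gave -0.086 (peptide, Spl/LN) and 0.070 (interaction) for Psmb8 and -0.066 for Psmb6 (tissue, adjuvant alone), and total counts only gave -0.093 for Psmb6 and 0.042 for Psmb10 (interaction). Libraries with the same replicate number did not deviate together (correlations -0.04 to 0.055 over 15 pairs, -0.060 to 0.04 for other numbers over 30). No pairing was thus seen, but deviations from means of 2 or 3 libraries cannot exclude that the numbers pair them. With the replicate block, 4, 1, 2, 0 and 0 genes were called in the 5 comparisons, the gene lost being Psmd3 between tissues with adjuvant alone (-0.41, adjusted p = 0.0622).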
